A study of Mus musculus with 6 samples.

Results

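The pentose phosphate pathway enzymes were measured in LSK cells (lineage-negative, Sca-1+, c-Kit+), the bone marrow fraction that holds haematopoietic stem cells and early progenitors. The members were listed by gene name with no cut on a measured value, but earlier results of these data were known at the choice. They were G6pdx, G6pd2, Pgls, Pgd, Rpia, Rpe, Tkt, Taldo1 and H6pd, with every probe that the array design lists under these names. This gave 19 of 56605 probes for the 9 genes, of which 18 passed the filter on dim probes, among 32074 probes tested in all. Control samples were Atg5w/w;VaviCre+ and the others Atg5f/f;VaviCre+ (Atg5f/f;Vav), both on C57BL/6, taken at postnatal days 6 to 8, with 3 samples per genotype. Both genotypes carried the Vavi-Cre transgene, which drives Cre in haematopoietic cells, so that loxP-flanked Atg5, a gene required to build autophagosomes, is deleted there and not in the rest of the mouse. The gate holds progenitors as well as stem cells, and in bulk RNA fewer cells of a type and less RNA per cell cannot be told apart. The sources used here do not say whether a sample was 1 mouse or several, so p-values measure only the spread between these samples, which may be technical.

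Each sample was hybridised to 1 one-colour Agilent array, where a spot is brighter the more RNA matches its 60-base probe. Values are given as relative log2 signal, which is the log2 intensity minus that of the array's 75th percentile, so that a difference of 1 is a 2-fold difference. These levels are not per length and depend on the probe, so levels were compared between arrays and never between probes. A probe was called when its limma adjusted p was under 0.05. All 9 LSK markers tested, among them Kit, Ly6a (Sca-1) and Ptprc, were well above background on all 6 arrays. Slide row 1 held the control arrays and slide row 2 the Atg5f/f;Vav arrays, and the effect of the row cannot be told apart from that of the genotype. The only Atg5 probe starts at base 2251 of its transcript and read 0.54 ± 0.122 (SE) higher on the Atg5f/f;Vav arrays (adjusted p = 0.0209). Since no source used here places that probe in the deleted part of the gene, it does not check the genotype. Across all probes, 17.3% were called higher and 17.1% lower in Atg5f/f;Vav, and these shares are the background for the counts below.

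The pentose phosphate pathway draws glucose 6-phosphate away from glycolysis. Its oxidative branch, made up of the committing step on glucose 6-phosphate, 6-phosphogluconolactonase and 6-phosphogluconate dehydrogenase, reduces NADP+ to NADPH, which feeds glutathione reduction and lipid synthesis, and ends in ribulose 5-phosphate. Its non-oxidative branch interconverts sugar phosphates through an isomerase, an epimerase, transketolase and transaldolase, and connects ribose 5-phosphate for nucleotides with the intermediates of glycolysis. Stem and progenitor cells of the blood are known to be sensitive to oxidative stress, and NADPH from this pathway is among their means of holding reactive oxygen species down.

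The probe sequences below are those that carry results and show by their sequence or map position which part of a transcript was read. They are written as the array design lists them, with coordinates on mm9, and none has a part in capitals. The G6pd2 probe (chr5:62200957-62201016, plus strand, from base 875 of the transcript) is shown because the gene is a near-identical copy of G6pdx. The Taldo1 probe (chr7:148587650-148587824, plus strand) and the Pgls probe (chr8:74119044-74119958, plus strand) match 60 bases spread over 175 and 915 bases of the genome, so that each crosses a splice junction and reads spliced RNA.
G6pd2 A_51_P353735: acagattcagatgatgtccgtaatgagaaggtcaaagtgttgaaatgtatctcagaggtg
Taldo1 A_65_P13883: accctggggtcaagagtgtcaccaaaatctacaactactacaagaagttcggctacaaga
Pgls A_51_P321794: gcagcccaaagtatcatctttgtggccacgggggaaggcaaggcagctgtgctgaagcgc
Each holds at least 1 forward reading frame without a stop codon over its 60 bases, as a probe within coding sequence must. Such a frame does not by itself place a probe in coding sequence. Another Pgls probe (A_55_P2760181), within the bases that the Pgls probe above skips, has 2. Whether the other probes lie in coding or untranslated sequence was not worked out, because no annotation of this build was used.

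The oxidative branch was higher in Atg5f/f;Vav LSK cells at each of its enzymes. By the brightest probe of each gene, 4 of 4 genes were called higher, with a median log2 fold change of 1.06 and a range of 0.73 to 2.10. G6pd2, at the top of that range, met the filter on dim probes only through the Atg5f/f;Vav arrays, where it was higher. It was well above background on 1 control array. With a filter on all 6 arrays it was not tested, and the median was 0.85. The non-oxidative branch had 3 of 4 genes called higher, with a median of 0.71 and a range of 0.22 to 0.85. With H6pd, which was not called, 7 of the 9 genes were called higher and 0 lower, where 18.7% of all 20693 genes tested were called higher and 15.3% lower, and the median over all genes was -0.03. None of the 9 had a negative fold change by its brightest probe. With the mean of all tested probes of a gene in place of the brightest, 5 of the 9 were called.

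**Figure D1:**
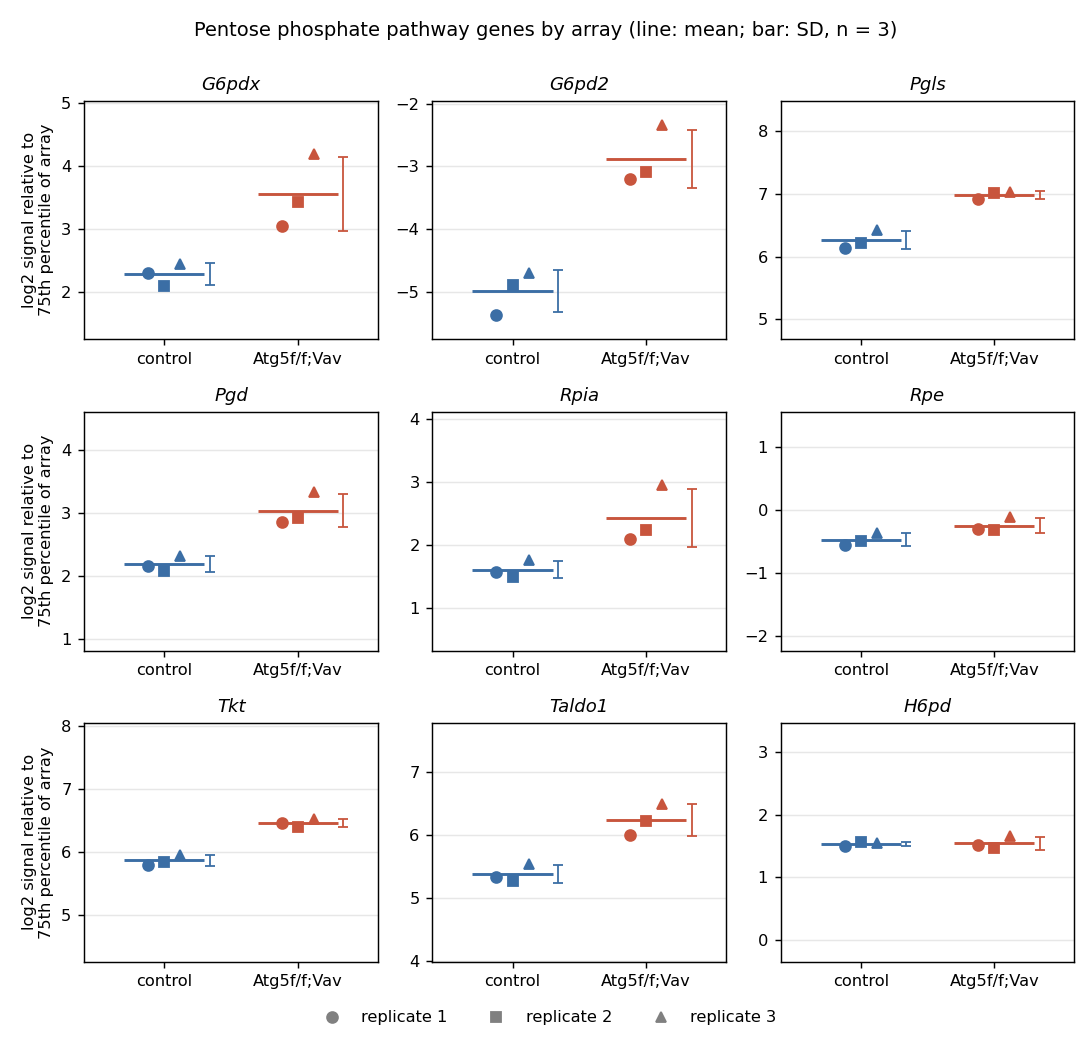
Relative log2 signal (log2 intensity minus the 75th percentile of the array) of each gene's brightest probe on each of the 6 arrays, with control in blue and Atg5f/f;Vav in red. Horizontal lines are means and bars SD (n = 3), and every panel spans the same height in log2 units. The groups do not overlap for 8 of the genes, among them Rpe, which was not called, and H6pd is the one whose groups overlap. Of all tested probes, 27.1% lie wholly higher and 28.3% wholly lower in Atg5f/f;Vav.

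G6pdx is X-linked, and its product carries out the step that commits glucose 6-phosphate to the pathway. Its 1 probe (chrX:71654949-71655008, minus strand) read 2.30, 2.09 and 2.44 in control and 3.05, 3.42 and 4.19 in Atg5f/f;Vav. Every Atg5f/f;Vav array was above every control array, and Atg5f/f;Vav replicate 3 stood furthest from the controls. The difference was 1.28 ± 0.284 (SE, 95% confidence interval 0.60 to 1.95), a 2.42-fold higher signal, with adjusted p = 0.0203. Without Atg5f/f;Vav replicate 3 it was 0.96, with adjusted p = 0.0159. In linear intensity before scaling, the probe read 2766 to 4043 on the control arrays and 7288 to 11330 on the Atg5f/f;Vav arrays. Because the gene is X-linked, sex-linked transcripts were read beside it. The 1 Xist probe was well above background on no array, and the brightest probe of each of the Y-linked genes Ddx3y, Eif2s3y, Kdm5d and Uty was well above background on all 6, while some of their other probes were not. Of these brightest probes, that of Eif2s3y was called (0.50 higher, adjusted p = 0.021) and the others were not.

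G6pd2 is the autosomal retrogene copy of G6pdx, on chromosome 5. Its probe was dim, with 16.0, 22.0 and 28.8 intensity units in control and 95.8, 82.0 and 122.1 in Atg5f/f;Vav. The relative log2 signals were -5.36, -4.89 and -4.70 in control against -3.20, -3.09 and -2.35 in Atg5f/f;Vav. The groups were well apart, and the scanner software marked the probe as well above background on 1 control array and on all 3 Atg5f/f;Vav arrays. The measured difference was 2.10 ± 0.271 (SE, adjusted p = 0.0112), or 4.295-fold. With each control array set no lower than its dimmest signal well above background, the fold was 3.659. With normexp background correction, whose offset is large against these intensities, the difference was 0.77 (adjusted p = 0.00786), below the 1.26 of G6pdx under that correction, so the order of the folds among the members depended on it. The G6pd2 and G6pdx transcripts are near-identical copies, and whether RNA of one hybridises to the probe of the other was not tested, so the G6pd2 value is uncertain as a measure of that gene alone.

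Pgls encodes 6-phosphogluconolactonase, the second enzyme of the branch. Its brightest probe (A_55_P2792415) read 6.13, 6.22 and 6.42 in control and 6.91, 7.01 and 7.03 in Atg5f/f;Vav, 0.73 ± 0.118 (SE) higher, with adjusted p = 0.0149. The junction-crossing probe shown above read 2.98, 3.02 and 3.17 in control and 3.73, 3.77 and 3.94 in Atg5f/f;Vav, a difference of 0.76 ± 0.117 (SE) with adjusted p = 0.0145. The groups did not overlap on either probe, and quantile normalisation gave 0.48 and 0.47 (adjusted p = 0.0251 and 0.0232).

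Pgd encodes 6-phosphogluconate dehydrogenase, the enzyme that makes the second NADPH and releases carbon dioxide. Its RefSeq probe (A_52_P84096, chr4:148524293-148524352, minus strand) read 2.16, 2.09 and 2.33 in control and 2.86, 2.92 and 3.35 in Atg5f/f;Vav. The groups were apart, and the difference was 0.85 ± 0.159 (SE, 1.80-fold, adjusted p = 0.0166).

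In the non-oxidative branch, Tkt and Taldo1, which move carbon units between sugar phosphates, were both called higher. Tkt, the transketolase, read 5.79, 5.84 and 5.95 in control and 6.46, 6.40 and 6.51 in Atg5f/f;Vav on its probe A_51_P394515. The spread within each group was small and the difference was 0.59 ± 0.106 (SE, 1.51-fold, adjusted p = 0.0158). With quantile normalisation it was 0.27, with adjusted p = 0.0585.

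Taldo1, the transaldolase, was read by 2 probes, both called. On A_51_P401958 (chr7:148588764-148588823) it read 5.34, 5.27 and 5.54 in control and 6.00, 6.22 and 6.50 in Atg5f/f;Vav, a difference of 0.85 ± 0.158 (SE, 1.81-fold, adjusted p = 0.0165). On the junction-crossing probe it read 2.53, 2.20 and 2.68 in control and 3.48, 3.48 and 3.87 in Atg5f/f;Vav, a difference of 1.14 ± 0.174 (SE, 2.21-fold, adjusted p = 0.0145). Neither probe's groups overlapped, and with quantile normalisation the differences were 0.51 (adjusted p = 0.0339) and 0.87 (adjusted p = 0.0208). The junction-crossing probe's difference exceeded that of the other by 0.29 (exact permutation p = 0.1, the smallest that 3 against 3 arrays can give).

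Rpia, the isomerase that makes ribose 5-phosphate, was called with the highest adjusted p of the called members. Its RefSeq probe (A_66_P109395) read 1.57, 1.49 and 1.77 in control and 2.09, 2.25 and 2.95 in Atg5f/f;Vav. Replicate 3 was again the highest of the Atg5f/f;Vav arrays. The difference was 0.82 ± 0.232 (SE, adjusted p = 0.0355), and without that array it was 0.56 (adjusted p = 0.0263). Quantile normalisation gave adjusted p = 0.0596, and scaling by the probes detected on all arrays gave 0.0573.

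Rpe, the epimerase that makes xylulose 5-phosphate from the same substrate, had 3 probes and none was called. The brightest (A_55_P2024649) read -0.55, -0.48 and -0.36 in control and -0.30, -0.31 and -0.11 in Atg5f/f;Vav. Its groups did not overlap, but the difference was 0.22 with a 95% confidence interval of -0.05 to 0.50 and adjusted p = 0.167. The other probes gave 0.05 (adjusted p = 0.79, A_66_P133175) and 0.26 (adjusted p = 0.281, A_52_P655831), and the first of these turned to -0.15 when the arrays were scaled by the probes detected on all of them.

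H6pd encodes the hexose-6-phosphate dehydrogenase of the endoplasmic reticulum, which carries out the first steps of the oxidative branch inside that compartment. It is not part of the cytosolic route. Its probe read 1.50, 1.57 and 1.54 in control and 1.51, 1.46 and 1.66 in Atg5f/f;Vav. The groups overlapped, and the difference of 0.005 had a 95% confidence interval of -0.25 to 0.26 (adjusted p = 0.976). Its direction depended on the scaling, with -0.14 by quantile normalisation and -0.20 by the probes detected on all arrays.

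Several members had further probes, named in the array design for other transcripts. Of 13 tested probes named for a RefSeq transcript, 9 were called higher, and the median over all 13 was 0.76 on the log2 scale. Of 5 tested probes named for an Ensembl transcript, 0 were called by limma, 1 had a positive fold change and the median was -0.14, while the median over all tested probes was -0.06. The split between RefSeq and Ensembl probes was noticed after the values were seen. At an unadjusted limma p under 0.05, 10 of the 18 member probes passed, the 9 called and a Tkt probe that was lower. Of all 32074 tested probes, 15506 passed that cut, so the member count is not read as a result. In all, 10 member probes had Atg5f/f;Vav arrays wholly above control and 1 wholly below, against 27.1% and 28.3% of all tested probes.

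**Figure D2:**
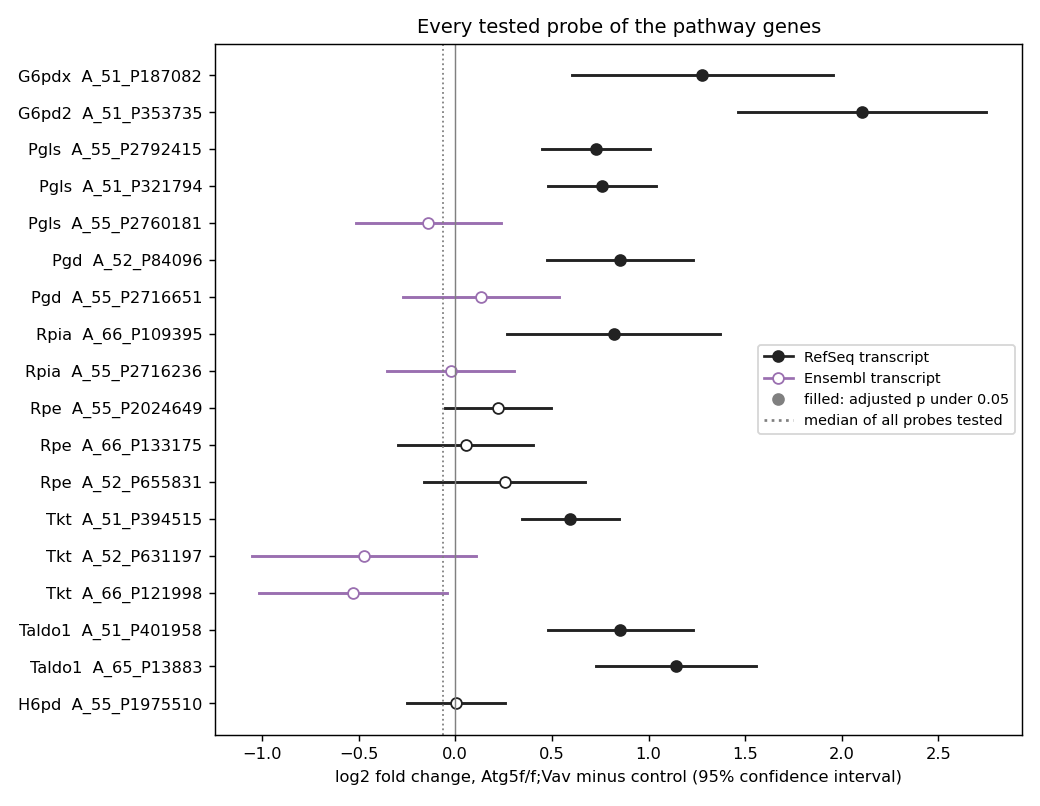
Log2 fold change (Atg5f/f;Vav minus control) of each of the 18 tested probes with its 95% confidence interval, in black for probes on RefSeq transcripts and in purple for probes on Ensembl transcripts. Filled points have an adjusted p under 0.05, and the dotted line marks the median of all tested probes at -0.06. The purple points lie between -0.53 and 0.13, and the filled points between 0.59 and 2.10.

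For Pgls, the third probe (A_55_P2760181) lies inside the 915 bases spanned by the junction-crossing probe, 443 bases from one end and 412 from the other, and thus within the 855 bases that the junction-crossing probe skips. It read -0.59, -0.22 and -0.77 in control and -0.74, -0.62 and -0.64 in Atg5f/f;Vav, with overlapping groups and a difference of -0.14 (adjusted p = 0.515). The spliced probe minus this one was 0.90 higher in Atg5f/f;Vav, without overlap.

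For Tkt, both further probes were lower by value and neither was called. A_66_P121998, near the 5' end of an Ensembl transcript (from base 108), read -3.58, -3.67 and -4.02 in control and -4.68, -4.09 and -4.09 in Atg5f/f;Vav. Its groups did not overlap, the difference was -0.53 and adjusted p = 0.0839. It was called lower (-0.74, adjusted p = 0.0341) among the alternatives only when arrays were scaled by the probes detected on all of them. Normexp background correction gave -0.21 (adjusted p = 0.291) and quantile normalisation -0.20 (adjusted p = 0.422). This probe was dim, at 34.3 to 54.8 intensity units over the arrays. A_52_P631197 gave -0.47 (adjusted p = 0.167). The called Tkt probe minus these was 1.12 and 1.07 higher in Atg5f/f;Vav.

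For Pgd, A_55_P2716651 gave 0.13 (adjusted p = 0.559), which became -0.07 with scaling by the probes detected on all arrays, and A_55_P2716656 was well above background on 0 of 6 arrays and was not tested. For Rpia, A_55_P2716236 gave -0.02 (adjusted p = 0.903), which became 0.16 with quantile normalisation. The called probe minus the further one was 0.72 higher for Pgd and 0.84 higher for Rpia. The 7 within-gene differences examined include the Taldo1 pair above and the brightest Pgls probe minus the third (0.87 higher). The pairs were chosen after the values were seen, mostly as a called probe minus one not called. A higher difference was thus largely set by that choice, and no share over all probe pairs was worked out. Each of the 7 had non-overlapping groups and an exact permutation p = 0.1, and 0.1 after Benjamini-Hochberg adjustment over the 7 pairs. That is the smallest p this design allows, so none could pass the threshold.

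The calls depended on which arrays were used. With any of the Atg5f/f;Vav arrays left out, 8 or 9 member probes were called, and without control replicate 3, 8. Without control replicate 1, 1 was called (G6pd2, adjusted p = 0.0477), and the highest adjusted p of the 9 was 0.104. Without control replicate 2, 0 were called, with adjusted p from 0.057 to 0.117. In both cases 9 of the 18 tested member probes had an unadjusted limma p under 0.05, as had 11616 and 11455 of all 32074 tested probes. The calls over all probes fell from 11024 to 330 and 251. The fold changes of the 9 probes lay between 0.56 and 1.91 without control replicate 1 and between 0.59 and 2.15 without control replicate 2.

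**Figure D3:**
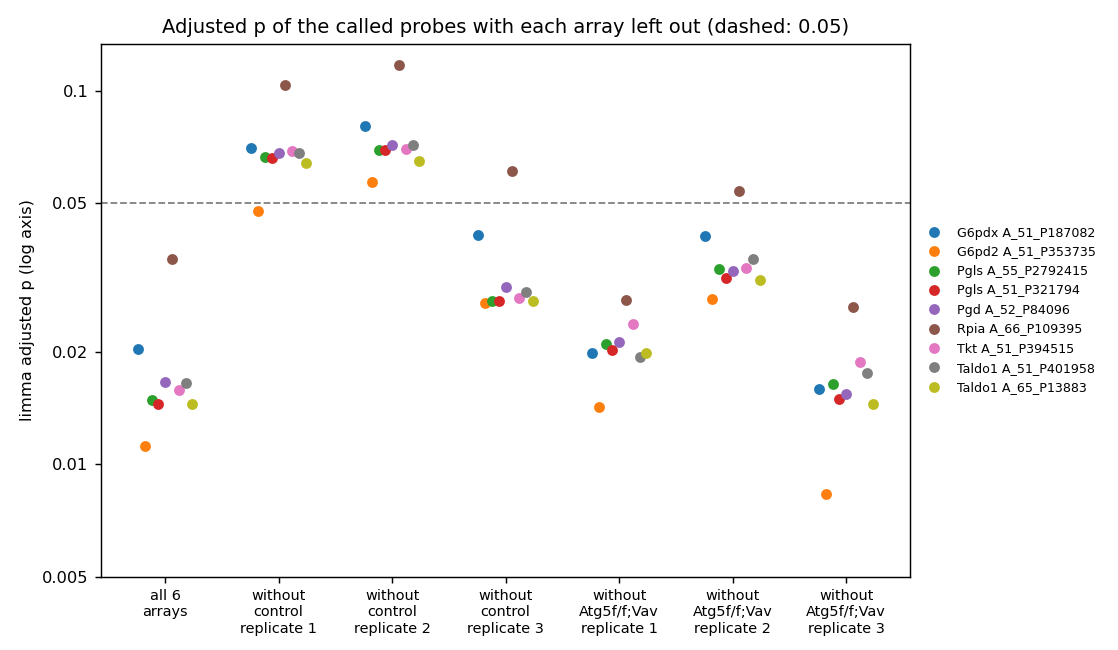
Limma adjusted p (log axis) of the 9 called member probes with all 6 arrays and with each array left out in turn, with the threshold of 0.05 dashed. All 9 lie above the line without control replicate 2, and 8 of 9 without control replicate 1.

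The control arrays also differed among themselves in transcripts of other cells. The stromal list (9 genes) had a summed level of 9.96 to 40.1 in control and 5.66 to 8.85 in Atg5f/f;Vav in units of the 75th percentile. Col1a1 read -4.14 on control replicate 1 against 3.23 and 2.95 on the others, and Col1a1, Col1a2 and Sparc were called lower. Col1a1 was well above background on the control arrays alone. The stromal genes Cdh5 and Col3a1 were well above background on no array. The part of these transcripts in the members' results was not tested.

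Erythroid genes moved both ways. Of 11 erythroid markers on the array, Car1, Epor, Gata1 and Klf1 were called higher and Alas2, Hba-a1, Hbb-bt and Slc4a1 lower, and the summed level was 354 to 720 in control and 157 to 220 in Atg5f/f;Vav. Gata1 read 2.90, 3.73 and 4.56 on the Atg5f/f;Vav arrays, highest on replicate 3. Among these arrays, the brightest probe of every member gene was also highest on replicate 3, including Rpe and H6pd, which were not called. Atg5f/f;Vav replicate 3 had 51.6% of probes well above background, the lowest share of the 6 arrays. It correlated with the control arrays at 0.952 to 0.962 across probes, lower than either other Atg5f/f;Vav array did. Of 12 neutrophil markers, 3 (Ctsg, Mpo and Prtn3) were called higher and 8 lower, with summed levels of 183 to 301 and 245 to 304. Of 6 megakaryocyte markers, Gp1ba and Itga2b were called higher and Gp9, Ppbp and Vwf lower (summed levels 7.69 to 9.20 against 6.95 to 7.07). Ppbp was well above background on the control arrays alone. Of 8 B cell markers, Cd79a was called higher (summed levels 9.26 to 12.4 against 10.7 to 17.9). Its probe was well above background on 4 of 6 arrays. No macrophage gene of 4 tested and no T or NK cell gene of 4 tested was called, and Mertk, Cd3g, Cd8a and Ncr1 were well above background on no array. Their part in the members' results was not tested. Among the LSK markers themselves, Ly6a was called higher (1.57, adjusted p = 0.00623) and Procr lower (-1.56, adjusted p = 0.0273). Ptprc was called lower at the threshold (-0.34, adjusted p = 0.05 as rounded), and Kit was not called (-0.38, adjusted p = 0.0563). The list's summed level was 149 to 159 in control and 102 to 162 in Atg5f/f;Vav.

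Enzymes that surround the pathway were read from 3 further lists. Their counts stand beside the shares of all genes tested, of which 18.7% were called higher and 15.3% lower. Of 15 genes listed as other enzymes around the pathway, 11 were tested, 5 were called higher and 0 lower, with a median of 0.25. Rbks, the ribokinase, read 0.74, 0.48 and 0.74 in control and 1.44, 1.51 and 1.85 in Atg5f/f;Vav (0.94 ± 0.15 SE, adjusted p = 0.0147). Idnk, a gluconokinase that makes 6-phosphogluconate, was 0.89 higher (adjusted p = 0.0161). Prps1, which makes phosphoribosyl pyrophosphate from ribose 5-phosphate, was 0.78 higher (adjusted p = 0.018), and Prpsap1, a protein associated with that synthetase, 0.56 higher (adjusted p = 0.0168). The fifth was Prps1l3, named outside the rule for named genes, at 0.47 (adjusted p = 0.0343), and cross-hybridisation with Prps1 was not tested. Dera, which splits deoxyribose 5-phosphate, had groups that did not overlap, a difference of -0.42 and adjusted p = 0.0647. The transketolase-like genes Tktl1 and Tktl2 were well above background on no array and were not tested.

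Of 13 genes listed as other NADPH sources, 11 were tested, 4 were called higher and 1 lower, with a median of 0.21. The name is that of the list, here and below. Nadk makes NADP+ and not NADPH, and the cofactor used by the folate and malic enzymes was not examined. Calls in this list are therefore not calls of NADPH production. With the mean of all tested probes of a gene in place of the brightest, 3 were called higher and 3 lower. Mthfd2, a mitochondrial folate enzyme, read -0.73, -0.91 and -0.84 in control and 0.39, 0.50 and 1.42 in Atg5f/f;Vav, 1.59 ± 0.268 (SE) higher with adjusted p = 0.0153. Mthfd1, its cytosolic counterpart, was 1.15 higher (adjusted p = 0.0154), Me2, a mitochondrial malic enzyme, 0.65 higher (adjusted p = 0.0171) and Nadk, which makes NADP+ from NAD+, 0.57 higher (adjusted p = 0.0254). Me3, another mitochondrial malic enzyme, differed by -0.81 (adjusted p = 0.0227). Its probe was well above background on the 3 control arrays alone, so it passed the filter only through the group where it read higher. Idh1 and Idh2, the NADP-dependent isocitrate dehydrogenases, were not called, at -0.26 (adjusted p = 0.109) and 0.21 (adjusted p = 0.247).

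Of 14 genes that make or use glucose 6-phosphate or lead it down glycolysis, 13 were tested, 3 were called higher and 1 lower, with a median of 0.15. With 18.7% of all genes tested called higher and 15.3% lower, these counts are not read as a change in the list. Slc37a4, the glucose 6-phosphate transporter of the endoplasmic reticulum, was 0.66 higher (adjusted p = 0.02) and G6pc3, the phosphatase it supplies, 0.65 higher (adjusted p = 0.0253). Pfkp, a phosphofructokinase, was 0.63 higher (adjusted p = 0.0298). The hexokinase Hk1 differed by -0.06 (adjusted p = 0.685) and the isomerase Gpi1 by 0.36 (adjusted p = 0.0531). Without control replicate 1 or without control replicate 2, 0 genes of any of these 3 lists were called by limma. At an unadjusted limma p under 0.05 the lists had 5, 6 and 4 genes and 5, 5 and 4 genes. Over all probes, 11616 and 11455 of 32074 passed that cut in these fits.

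**Figure D4:**
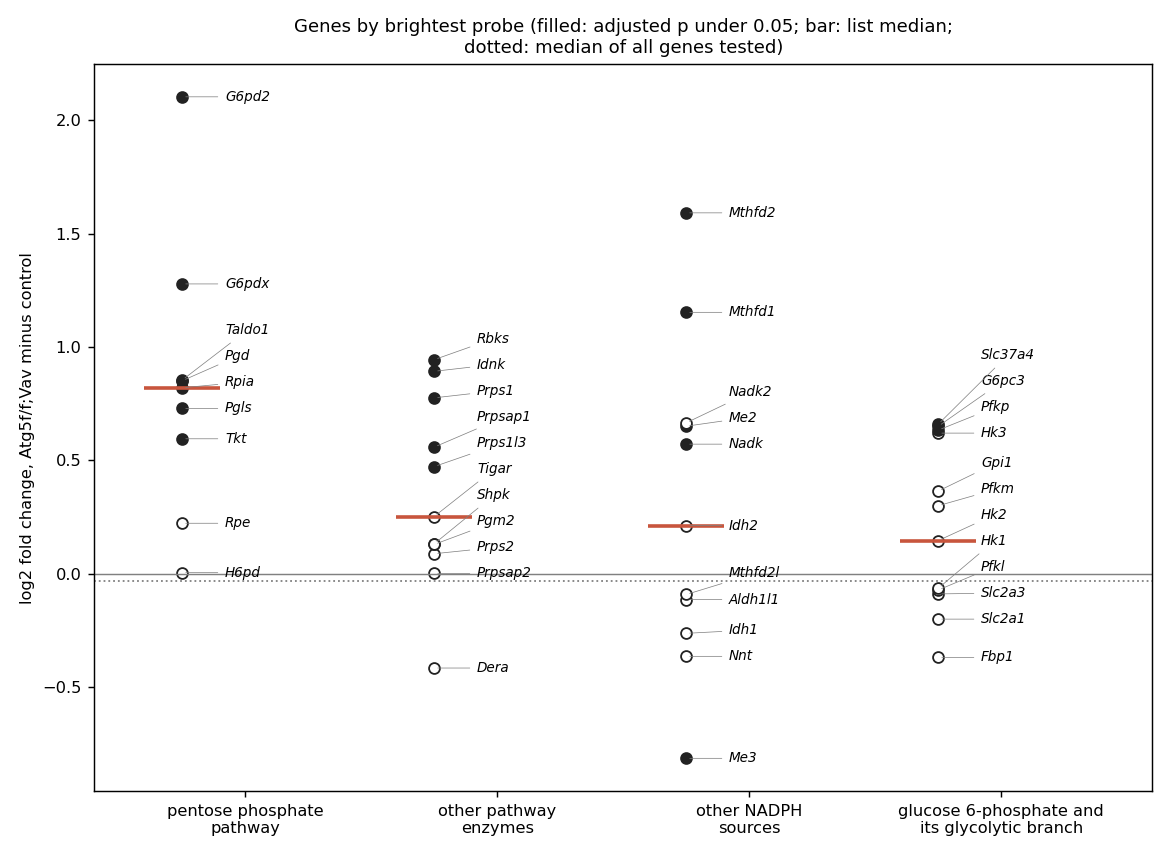
Log2 fold change (Atg5f/f;Vav minus control) of tested genes by their brightest probe (12 of the 13 in the last column), in 4 columns for the pentose phosphate pathway and the 3 neighbouring lists. Filled points have an adjusted p under 0.05, red bars are medians over all tested genes of a list (0.82, 0.25, 0.21 and 0.15) and the dotted line is the median of all genes tested at -0.03.

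Scaling moved the whole distribution. With each array scaled by the probes detected on all 6 arrays, the median over all probes was -0.27 in place of -0.06, and the calls over all probes were 3371 higher and 10088 lower, where the 75th percentile over all probes had given 5540 and 5484. Both scalings subtract a constant from each array, so a fold change relative to the median of all probes must be the same under both. Relative to that median, Tkt was 0.66 higher and H6pd 0.07 higher with either. Quantile normalisation is not bound in this way, and relative to its own median it gave 0.29 for Tkt and -0.13 for H6pd. Of the member probes, 8 were called higher and 1 lower by the probes detected on all arrays, and 7 higher and 0 lower by quantile normalisation.

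The genes whose profile over the 6 arrays came nearest to that of G6pdx, by root mean square difference after each profile was centred, were Cyb561 (0.0617), Slc11a2 (0.0702) and Ccne1 (0.0744), against a median of 0.757 over 20693 genes. For Taldo1 they were LOC102641648 (0.0267), Mrpl55 (0.032) and Plscr1 (0.0335), against a median of 0.503. These 6 genes rose by 0.84 to 1.37. They are a description of likeness over 6 arrays that share 2 groups.

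Promoters were read because several members rose together. Nrf2, a transcription factor known to induce antioxidant and NADPH-producing genes, binds antioxidant response elements. RefSeq promoter sequences (GRCm38.p6) were matched by symbol for all 9 genes, giving 10 promoters with 2 for Pgd. The 250 bases before each start were searched on both strands for TGACNNNGC, the core of the antioxidant response element. It was found in 1 of the 10 promoters and in 10.2% of the 32851 promoters of the same length in the table. The match was in G6pdx, where it lies on the strand opposite to the gene from 57 bases before the start. The 250 bases are shown for that match, which is in capitals, at chrX:74428881-74429130, minus strand.
G6pdx promoter: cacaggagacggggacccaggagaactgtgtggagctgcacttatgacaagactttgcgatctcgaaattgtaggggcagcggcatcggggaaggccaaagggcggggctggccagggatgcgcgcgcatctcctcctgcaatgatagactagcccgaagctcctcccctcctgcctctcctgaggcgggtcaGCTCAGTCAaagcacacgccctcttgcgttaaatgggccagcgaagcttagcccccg
The match is a description of these letters, and the absence of one from the windows of the other members says nothing of sites elsewhere.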

How the data were processed

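LSK cells of 3 control and 3 Atg5f/f;Vav samples were profiled on 1-colour Agilent arrays. The deposited scanner files hold the intensity of each spot, which the authors' service corrected for background with Agilent Feature Extraction 12.0.3.1, and flags for outlier, saturated and well-above-background spots. The deposited series table holds a normalised signal, each array's intensity divided by its 75th percentile over all 62976 spots, and was used as an alternative. Probe coordinates are on mm9.

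Intensities were put on the log2 scale and centred on the 75th percentile of their array, taken over its 59305 spots other than controls. Spots with an outlier flag, 64 to 81 on each array, were dropped, and saturation was not seen on any. Spots of a probe were averaged. A probe entered the test if at least 3 of the 6 arrays had it well above background. The fit used lmFit and eBayes of limma 3.58.1 under R 4.3.3, the test was 2-sided, and p-values were adjusted by Benjamini and Hochberg's method over the 32074 probes. A gene was represented by its brightest probe. The number of arrays limits the precision. The samples were grouped by the genotype in their labels. The script was tested on simulated data.

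The members and lists were chosen with earlier results of these data known. The genes named are all members with every probe, at most 4 called genes each way of each list, Tktl1, Tktl2, and the 3 genes nearest in profile to G6pdx and to Taldo1. Other genes are named as markers, or were added after their values were seen. The alternatives were quantile normalisation, background correction by normexp with an offset of 50, a 75th percentile from the probes that all arrays detected, the deposited signal, no filter or a filter on all 6 arrays, flagged spots kept, an intensity trend in eBayes, a block for the replicate number, the methods' t-test, the mean of all tested probes of a gene, and each array left out. The study's other assays were not analysed here. Of the genes in the lists, 2 are not reported here by name.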

Additional observations from a re-analysis of the deposited data

How the results depend on the processing

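No fold change of a called member probe changed sign under any alternative run. Of the member genes, 5 were called by quantile normalisation, with no filter on dim probes and by the mean of all tested probes of a gene, and 6 by the probes detected on all arrays and with a filter on all 6 arrays. By quantile normalisation, 3 other pathway enzymes and 3 other NADPH sources were called, and the median of the non-oxidative branch was 0.39. With no filter on dim probes, 4538 probes were called in all, with 3 NADPH sources and 1 gene of the glucose 6-phosphate list. By the mean of all tested probes of a gene, the NADPH sources had 6 calls (3 higher and 3 lower), the glucose 6-phosphate list had 2, and the non-oxidative median was 0.29. By the methods' t-test after Benjamini-Hochberg adjustment, 0 probes were called in all, and hence 0 member probes, 0 member genes and 0 genes of each of the 3 lists, while at an unadjusted p under 0.05 that test gave 13541 probes in all and 9 member probes, and limma gave 15506 and 10. With each array left out in turn, calls ranged from 251 to 10304 over all probes, 0 to 9 for member probes, 0 to 7 for member genes, 0 to 5 for other pathway enzymes, 0 to 6 for NADPH sources and 0 to 5 for the glucose 6-phosphate list, and the low ends are the fits without control replicate 1 or 2. The cause of these changes was not tested. Rpia fell short of the threshold in 8 of 17 alternatives, and G6pdx and Tkt in 4 of 17 each. With the replicate number as a block, 9 member probes and 10173 probes in all were called. Samples of the same number correlated at -0.07, 0.19 and 0.11 in their deviations from the group means, so the numbers were not taken to pair the samples. A slide or scan block was not run because all arrays share 1 slide and 1 scan. Dim probes limit what was seen for G6pd2 in control, for Me3 in Atg5f/f;Vav and for Tktl1, Tktl2 and 1 Pgd probe in both groups.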
